A study of Mus musculus with 10 samples.

Results

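The genes described here are those whose transcript level was lower in all 5 Camk2d knockout (KO) clones than in any Camk2d-intact sample of the mpkCCD line, an immortalised mouse principal cell of the cortical collecting duct. Levels are given as TPM, the share of all transcripts corrected for transcript length. Of 55414 genes in the table, 13047 had a mean of at least 1 TPM over the 10 samples, and in 73 of these (0.560%) the highest KO value lay below the lowest intact value. Of the 73, 18 were set aside by symbol (Camk2d itself, Mt1, Alox5ap, Tmsb15b1, and genes with the prefixes of gasdermins, ribosomal and mitochondrial ribosomal proteins, mitochondrially encoded genes, complex I subunits, proteasome subunits, Rab proteins, collagens, laminins and integrins), which left 55. The same rule in the opposite direction picked out 209 genes (1.60%), higher in every KO clone. The 55 genes were thus selected on the TPM values of the KO and intact samples themselves, so their differences between KO and intact are given as a description and no test of them is used as support.

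Camk2d encodes CAMK2D, the delta form of calcium/calmodulin-dependent protein kinase II, which phosphorylates serine and threonine residues when calcium-bound calmodulin opens it. In the principal cell, vasopressin acts through its V2 receptor, cAMP and calcium to move the water channel aquaporin-2 to the apical membrane and to raise transcription of its gene, Aqp2. Apical delivery of such cargo runs through recycling endosomes, myosin motors, the actin cortex and membrane scaffolds.

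The samples were the parental line, 2 samples each of Intact clone 1 and Intact clone 2, which went through the CRISPR-Cas9 procedure and kept CAMK2D, and single-cell clones KO 1 to KO 5, each sequenced once. All were grown for 7 days with dDAVP, a vasopressin analog selective for the V2 receptor, at 0.1 nM on membrane supports, and all share the immortalised mpkCCD background. KO 1 and KO 2 came from guides to exon 8 and KO 3, KO 4 and KO 5 from guides to exon 9, and each KO clone descends from a single cell, so that clone and genotype cannot be told apart within 1 clone. The sources do not say whether the paired samples of an intact clone were separate cultures. An SD over the 5 intact samples therefore covers only 3 cell lines, where one over the KO samples covers 5 clones. Values are given throughout in the order parental, clone 1_1, clone 1_2, clone 2_1 and clone 2_2 for intact samples and KO 1 to KO 5 for knockouts.

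Camk2d read 141, 134, 135, 129 and 123 TPM in the intact samples and 25.5, 19.8, 23.2, 29.8 and 25.2 TPM in the KO clones, which matches the labels. Between 19344 and 20052 genes were above 0 TPM in a sample. KO 1 and KO 2 stood apart from the other samples in the level of whole chromosomes, chromosome 8 in KO 1 and chromosomes 3, 5 and 9 in KO 2, and values are given below with and without this. The principal cell was identifiable by its markers, 11 of 15 with a mean of at least 1 TPM, although Elf5, Tfap2b, Kcnj1 and Scnn1b were at or near 0. The summed principal cell markers ran from 13826 to 15440 TPM in intact samples and from 10725 to 13813 TPM in KO clones, and Aqp2 alone read 1281, 1618, 3789, 2879.7 and 2856 TPM in KO 1 to KO 5 against 3773 to 5502 TPM in intact samples, so that its groups overlapped. The part of this shift in the results below was not tested. Of the markers of other cell types, the 10 fibroblast markers summed to at most 0.61 TPM, the defining endothelial genes Cdh5, Kdr and Emcn and the defining leukocyte genes Adgre1, C1qa, C1qb, Laptm5 and Tyrobp were listed at 0 in every sample, and summed intercalated cell markers ran from 34.3 to 131 TPM in intact samples and from 43.4 to 193 TPM in KO clones. The whole endothelial list summed to between 52.7 and 70.3 TPM in intact samples and 45.5 and 62.0 TPM in KO clones, the leukocyte list to between 10.02 and 17.1 TPM and 9.28 and 26.4 TPM, and the proximal tubule list to between 32.0 and 39.8 TPM and 22.2 and 45.3 TPM, with 1, 1 and 2 genes of these lists at a mean of at least 1 TPM.

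Most of the 55 differences were small. On the log2(TPM + 1) scale, the KO mean minus the intact mean ran from −1.26 to −0.11 with a median of −0.25, where the median over all 13047 genes was 0.027. Without KO 2 the median of the 55 was −0.22 and without KO 1 it was −0.24, and with the level of each chromosome taken off it was −0.26. Of the 55, 3 were below −0.5, 13 lay between −0.5 and −0.3, 24 between −0.3 and −0.2 and 15 between −0.2 and −0.1. In linear terms the KO mean was between 7.56% and 82.3% lower than the intact mean, with a median of 16.3%. The gap that separated the groups was narrower still: the distance from the lowest intact to the highest KO value had a median of 2.56% of the intact mean and exceeded 5% in 10 genes. Over the 55 genes, the median of the mean TPM was 44.3 TPM, against 27.8 TPM over all 13047 genes. A mean of at least 100 TPM was held by 34.5% of the 55 and by 19.2% of all genes. A mean under 3 TPM was held by 7 of the 55.

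**Figure D1:**
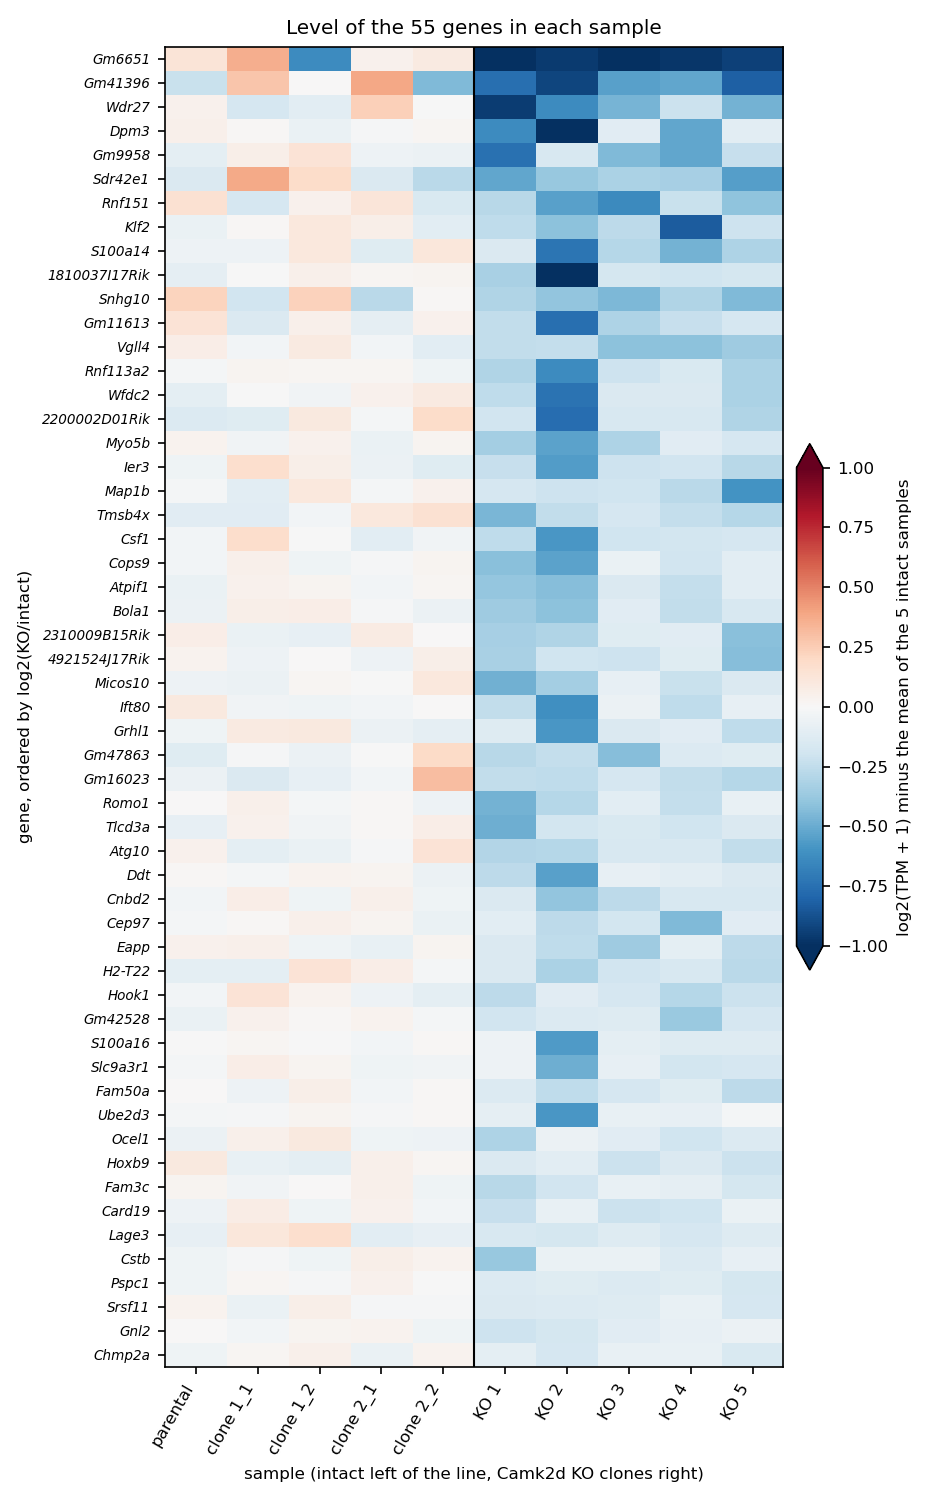
Heat map of the 55 genes (rows, ordered by their log2 difference between KO and intact) in the 10 samples (columns); the colour gives log2(TPM + 1) minus the mean of the 5 intact samples, and values beyond −1 or 1 take the end colour. In every row the KO values lie below the intact values, as the rule requires, and KO 2 holds the lowest value in 24 of the 55 rows.

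The steepest differences were in weakly expressed predicted genes. Gm6651, a processed pseudogene that shares sequence with Hmgn2, read 2.61, 3.25, 1.14, 2.40 and 2.51 TPM in intact samples and 0, 0.70, 0, 0.68 and 0.73 TPM in KO clones, and it is listed at 0 in KO 1 and KO 3. Gm41396, an antisense gene that shares sequence with Tuba1b, read 1.71, 2.83, 2.18, 3.15 and 1.33 TPM in intact samples and 0.88, 0.68, 1.18, 1.21 and 0.80 TPM in KO clones. Both lie within a few TPM of 0, so their log2 differences of −1.26 and −0.71 depend on the offset of 1 added before the log. Among genes above 10 TPM in intact samples, Wdr27, which encodes a protein with WD repeats, had the lowest ratio: 12.3, 10.5, 11.03, 14.3 and 11.9 TPM against 5.71, 7.38, 8.39, 10.2 and 8.36 TPM, a log2 difference of −0.55. KO 1 was the low extreme there and KO 4, at 10.2 TPM, came close to the lowest intact sample at 10.5 TPM.

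Dpm3 anchors dolichol-phosphate mannose synthase, which supplies mannose for glycosylation, in the endoplasmic reticulum. Its level was 157, 153, 145, 151 and 154 TPM in intact samples and 98, 73.8, 140.5, 105.5 and 141 TPM in KO clones, or 152 ± 4.59 TPM in intact samples and 112 ± 28.96 TPM in KO clones (SD, n = 5 each). The KO clones fell into a low set (KO 1, KO 2 and KO 4) and a set just under the intact range (KO 3 and KO 5). Sdr42e1, of the short-chain dehydrogenase/reductase family, read 10.8, 15.8, 13.7, 10.7 and 9.80 TPM against 8.04, 9.00, 9.41, 9.34 and 7.85 TPM. Here the spread was among the intact samples, with both samples of clone 1 above the other 3. Rnf151, a RING finger gene with a mean of only 1.28 TPM, read 1.88, 1.31, 1.68, 1.83 and 1.34 TPM against 1.14, 0.78, 0.67, 1.23 and 0.96 TPM.

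**Figure D2:**
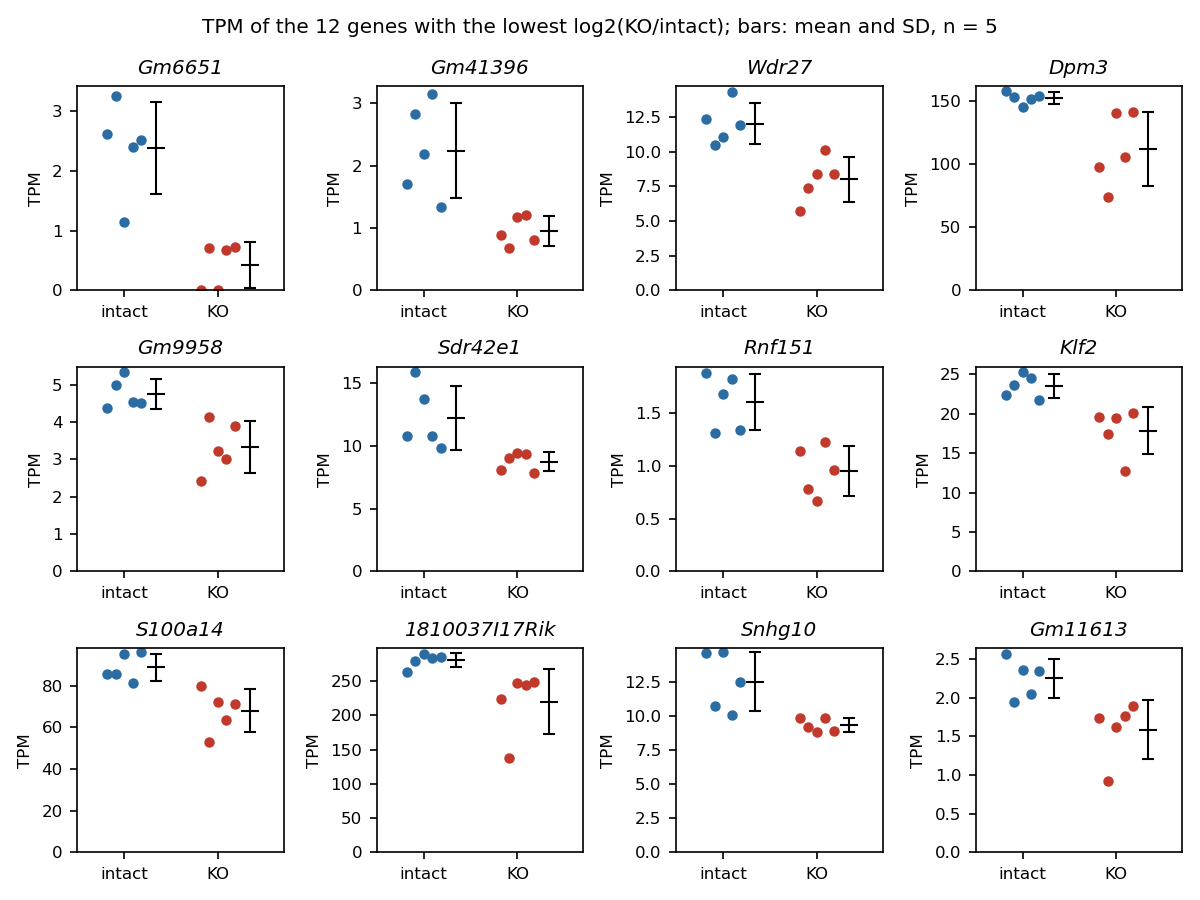
TPM (vertical axes, each from 0) in the 5 intact samples (blue) and 5 KO clones (red) for the 12 genes with the lowest log2 difference. Black bars are the mean and SD of 5 values, which for the intact samples come from 3 cell lines. The groups do not overlap in any panel because the rule selected for that, and the gap between the lowest blue and highest red point runs from 0.05 TPM in Gm11613 to 15.3 TPM in 1810037I17Rik.

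Klf2, Vgll4, Grhl1, Hoxb9 and Eapp act in transcription; here and in the paragraphs that follow, members are grouped by known role after their values were seen. Klf2, a Krüppel-like zinc finger factor best known from endothelium and T cells, read 22.3, 23.7, 25.3, 24.5 and 21.7 TPM in intact samples and 19.5, 17.4, 19.4, 12.8 and 20.1 TPM in KO clones, or 23.5 ± 1.50 TPM in intact samples and 17.8 ± 3.02 TPM in KO clones (SD, n = 5 each). KO 4 was the low clone and the other 4 lay between 17.4 and 20.1 TPM; with the level of chromosome 8 taken off, the groups overlapped. Vgll4, which binds TEAD factors in competition with YAP, read 126, 118, 128, 118 and 112 TPM against 101, 102, 90.4, 90.03 and 93.7 TPM, and its gap of 8.22% of the intact mean was the second widest of the 55, after Gm6651 at 17.2%. All 5 KO clones lay between 90.03 and 102 TPM. The epithelial factor Grhl1 read 21.6, 23.7, 23.96, 21.4 and 20.8 TPM against 20.3, 14.6, 20.1, 20.5 and 18.5 TPM. Hoxb9, a homeobox gene, read 81.2, 72.03, 70.8, 78.8 and 77.1 TPM against 68.6, 70.6, 65.2, 68.7 and 65.3 TPM, so that KO 2 at 70.6 TPM almost touched clone 1_2 at 70.8 TPM. Grhl1 is known for desmosomal genes of the epidermis and Hoxb9 for positional identity along the trunk. Eapp, whose product binds E2F factors, read 120.4, 121, 113, 111 and 119 TPM against 105.6, 97.5, 90.8, 109 and 97.3 TPM. Families were counted for Klf2 and Hoxb9. Klf2 was the only 1 of 10 expressed Krüppel-like factors to be lower in every KO clone, with a family median of 0.072, and Hoxb9 the only 1 of 26 Hox genes, with a family median of 0.054.

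Calcium-binding S100 proteins and the actin regulator thymosin were among the abundant genes. S100a14 read 85.7, 85.6, 95.4, 81.3 and 95.97 TPM in intact samples and 79.96, 52.9, 72.4, 63.6 and 71.2 TPM in KO clones. Its neighbour S100a16, with no other coding gene between them, read 479, 488, 479.6, 473 and 485 TPM against 465, 325, 448, 439 and 439 TPM. KO 2 was the lowest clone for both, and for S100a16 the other 4 clones lay between 439 and 465 TPM, just under the intact range of 473 to 488 TPM. With the level of chromosome 3 taken off, the groups overlapped for S100a16 and not for S100a14. Over the 10 samples, the deviations of S100a14 and S100a16 from their group means had a Pearson r of 0.84. They were the only 2 of 19 expressed annexin and S100 genes lower in every KO clone, against 0.560% of all genes, and they are neighbours on chromosome 3; Anxa11 was higher in every KO clone, and the median of the 19 was −0.096. Tmsb4x, thymosin beta 4, which binds actin monomers, read 1382, 1387, 1468, 1609 and 1659.5 TPM against 1089.6, 1259, 1330.3, 1272 and 1226 TPM. Among the 72 expressed genes of an actin cytoskeleton list, Tmsb4x alone was lower and Tln1 alone higher in every KO clone, with a list median of 0.018.

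Several genes act in apical transport, cilia and microtubule traffic. Myo5b encodes the myosin motor that carries recycling endosomes, and its loss is a cause of faulty apical delivery in intestinal epithelium. It read 16.9, 16.1, 17.01, 15.7 and 16.8 TPM in intact samples and 12.8, 11.1, 13.1, 15.1 and 14.6 TPM in KO clones, or 16.5 ± 0.57 TPM in intact samples and 13.3 ± 1.61 TPM in KO clones (SD, n = 5 each). Slc9a3r1 encodes NHERF1, a scaffold that ties membrane transporters to ezrin at the apical cortex, and is no solute carrier despite its symbol. It read 283, 301, 293, 279 and 281 TPM against 277, 205, 271, 253 and 255 TPM, and only KO 2 lay far below the intact range. Hook1, an adaptor between cargo and dynein, read 26.5, 29.9, 27.7, 26.1 and 25.2 TPM against 22.3, 24.98, 23.96, 22.1 and 23.1 TPM. Map1b, a microtubule-associated protein, read 19.8, 18.6, 21.7, 19.9 and 20.7 TPM against 17.7, 17.2, 17.4, 16.5 and 12.9 TPM, with KO 5 apart from the other clones. Both act on microtubule tracks inside the cell, and the next pair act at the centriole and cilium. Ift80, a subunit of the intraflagellar transport train of cilia, read 72.8, 66.4, 66.1, 66.7 and 68.4 TPM against 57.1, 44.1, 65.4, 56.99 and 64.1 TPM. Cep97, which caps centrioles with CP110 and holds back cilium growth, read 12.8, 13.1, 13.5, 13.3 and 12.3 TPM against 11.98, 10.7, 11.3, 9.30 and 11.9 TPM. KO 2 was the low clone for Ift80 and KO 4 for Cep97. Chmp2a, a subunit of the ESCRT-III membrane scission complex, had the smallest log2 difference of the 55, −0.11. It read 231, 241, 245, 226 and 244 TPM against 222, 211, 225, 226 and 214 TPM. Its KO 4 value of 225.7 TPM and its clone 2_1 value of 226.5 TPM nearly met. In related lists, none of 38 junction and polarity genes and none of 25 dyneins and dynactins was lower in every KO clone, Dync1i2 of the latter was higher, and Chmp2a was the only 1 of 47 expressed retromer, ESCRT and Vps genes.

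Atpif1, Romo1, Micos10 and Bola1 encode small proteins of the mitochondrion. Atpif1, the inhibitor of reverse action of the ATP synthase, read 775, 833, 825, 795 and 821 TPM in intact samples and 620.3, 602, 732, 686 and 754 TPM in KO clones. Romo1, an inner membrane protein linked to reactive oxygen species, read 636, 654, 624, 638 and 612 TPM against 455, 519, 587, 536 and 602 TPM. Micos10, a core subunit of the complex that shapes cristae, read 311, 309, 327, 322 and 347 TPM against 231, 256, 305, 277 and 292 TPM. In these 3 genes KO 1 or KO 2 was the lowest clone, and KO 3 or KO 5 the highest. Bola1, a mitochondrial protein of iron-sulfur cluster metabolism, read 99.3, 108, 109, 103 and 99.5 TPM against 80.8, 77.7, 95.6, 87.2 and 92.5 TPM. The deviations of Atpif1 and Micos10 from their group means had an r of 0.81 over the 10 samples. None of 54 expressed genes for the ATP synthase, complexes III and IV and the tricarboxylic acid cycle was lower in every KO clone, Sucla2 was higher, and their median was −0.0077; none of 24 expressed mitochondrial import genes was either.

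The ubiquitin and protein turnover genes included the member with the smallest gap between the groups relative to its intact mean. Ube2d3, a ubiquitin-conjugating enzyme, read 523, 527, 539, 527 and 536 TPM in intact samples and 497, 355, 503, 501 and 523 TPM in KO clones. Its parental and KO 5 values were 523.2 and 522.9 TPM, and only KO 2 stood apart. With the level of chromosome 3 taken off, its groups overlapped. Cops9, the small subunit of the COP9 signalosome, which removes NEDD8 from cullin ligases, read 417, 441, 412, 422 and 433 TPM against 317, 294, 405, 371 and 395 TPM. Cstb, cystatin B, an inhibitor of cathepsins, read 832, 851, 834, 894 and 879.7 TPM against 659, 817, 819, 778 and 809 TPM, with KO 1 apart from the rest. Atg10, the conjugating enzyme that joins ATG12 to ATG5 in autophagy, read 11, 9.88, 10.2, 10.6 and 11.8 TPM against 8.55, 8.57, 9.42, 9.45 and 8.86 TPM. Ube2d3 was the only 1 of 34 expressed ubiquitin-conjugating enzymes in the group.

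Several members act in RNA processing and ribosome assembly. Srsf11, a serine/arginine-rich splicing factor, read 233, 217, 237, 226 and 225 TPM in intact samples and 206, 206, 208, 216 and 202 TPM in KO clones. Pspc1, a paraspeckle protein, read 28.6, 30.04, 29.2, 30.4 and 29.6 TPM against 26.8, 27.1, 26.8, 27.1 and 26.02 TPM, with a KO coefficient of variation of 1.66%. Gnl2, a nucleolar GTPase of large ribosomal subunit assembly, read 77.8, 76.1, 79.04, 79.5 and 75.1 TPM against 67.2, 68.5, 71.4, 72.97 and 74.3 TPM. The differences of Srsf11, Pspc1 and Gnl2, between −0.13 and −0.14 on the log2 scale, were among the smallest of the 55. Fam50a, a spliceosome-associated protein, read 54.3, 52.2, 56.2, 53.2 and 54.5 TPM against 49.03, 45.3, 47.9, 49.5 and 44.9 TPM. Rnf113a2, the autosomal relative of a spliceosomal RING finger gene, read 21, 21.8, 21.6, 21.6 and 20.8 TPM against 17.1, 13.4, 18.3, 19.2 and 16.99 TPM, with a log2 difference of −0.32. Lage3, a subunit of the KEOPS complex that modifies transfer RNA, read 70.02, 80.4, 83.4, 68.9 and 70.1 TPM against 66.5, 65.7, 68.02, 65.9 and 67.8 TPM. Of 50 expressed spliceosome genes, Srsf11 was lower and Sf3a1 higher in every KO clone, with a median of 0.014.

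Secreted and immune-related products included the most abundant of the 55 genes. Wfdc2, a secreted protein with whey acidic protein domains, read 1970.1, 2098, 2057, 2165 and 2233 TPM in intact samples and 1759, 1263, 1899, 1903 and 1689.7 TPM in KO clones, or 2105 ± 101 TPM in intact samples and 1703 ± 262 TPM in KO clones (SD, n = 5 each). Csf1, the growth factor of macrophages, read 28.5, 32.9, 28.99, 27 and 28.3 TPM against 24.2, 19.1, 25.1, 25.4 and 25.8 TPM. Its receptor gene Csf1r was present in the same cells at 9.77 to 16.8 TPM in intact samples and 8.88 to 25.7 TPM in KO clones, with overlapping groups. The receptor was therefore measured but not among the 55. Fam3c, a secreted cytokine-like protein, read 320.1, 308, 315, 325 and 306 TPM against 259.5, 276, 298, 296 and 279 TPM. Ddt, a relative of macrophage migration inhibitory factor, read 108, 106.5, 110.2, 109.8 and 104 TPM against 89.8, 73.7, 102, 99.8 and 97.2 TPM. Ier3, an immediate early gene of stress and growth signals, read 42.6, 49.7, 45.8, 42.1 and 40.4 TPM against 37.4, 29.6, 38.05, 38.4 and 36.1 TPM. KO 2 was the lowest clone for Wfdc2, Csf1, Ddt and Ier3. H2-T22, a nonclassical MHC class I gene, read 12.4, 12.4, 14.8, 14 and 13.2 TPM against 11.99, 10.5, 11.5, 11.8 and 10.9 TPM. It alone among 29 expressed MHC class I and interferon response genes was lower in every KO clone, with a list median of −0.13; 27 of the 29 had a log2 difference below 0, as had 5239 of all 13047 genes. Only 46.5% of the 50-base windows of H2-T22 occur in no other gene, H2-T10 being the closest relative, so that the assignment of its reads is uncertain.

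The remaining named genes were of mixed or little-known role. Card19, a protein with a caspase recruitment domain, read 105, 114, 105, 111 and 106.4 TPM in intact samples and 92.04, 103, 93.3, 94.3 and 103 TPM in KO clones. Tlcd3a, a membrane protein with a TLC domain, read 45.03, 49.3, 46.6, 48.2 and 50.05 TPM against 33.7, 42.1, 42.9, 41.4 and 43.2 TPM. Ocel1, a protein with an occludin and ELL domain, read 31.1, 33.5, 34.7, 31.3 and 31.2 TPM against 25.9, 31.1, 29.8, 28.04 and 29.3 TPM. KO 1 was the lowest clone in these 3. Cnbd2, with a cyclic nucleotide-binding domain, read 4.70, 5.09, 4.63, 5.01 and 4.65 TPM against 4.26, 3.42, 3.85, 4.21 and 4.19 TPM, and its gap was 7.68% of the intact mean. Snhg10, a long noncoding host gene of a small nucleolar RNA, read 14.6, 10.7, 14.7, 10.1 and 12.5 TPM against 9.82, 9.16, 8.80, 9.85 and 8.86 TPM. The KO clones agreed there within 8.80 to 9.85 TPM while the intact samples ranged from 10.1 to 14.7 TPM.

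Predicted and clone-named genes made up 11 of the 55, of 1745 expressed genes with such names, and 11 others of that kind were higher in every KO clone, where 73 (0.560%) and 209 (1.60%) of all 13047 genes were lower and higher. The most abundant, 1810037I17Rik, read 263, 279, 289.8, 283 and 285 TPM in intact samples and 223, 137, 247, 244 and 248 TPM in KO clones. KO 2 was far below the other KO clones, which themselves lay between 223 and 248 TPM. The coding gene 2200002D01Rik read 99.1, 100.3, 117, 107 and 124 TPM against 95.2, 63.8, 97.7, 97.7 and 88.3 TPM, also with KO 2 lowest. The gene 2310009B15Rik read 40.6, 36.8, 36.4, 41.03 and 38.7 TPM against 30.6, 31.1, 35.5, 35.6 and 28.8 TPM. The gene 4921524J17Rik read 23.1, 21.8, 22.6, 21.8 and 23.6 TPM against 17.8, 19.5, 19.4, 20.7 and 16.5 TPM, and KO 5 was the lowest clone in the last pair. Gm9958 read 4.38, 4.99, 5.33, 4.55 and 4.52 TPM against 2.42, 4.14, 3.22, 3.01 and 3.89 TPM, with KO 1 lowest. Gm11613 read 2.56, 1.94, 2.36, 2.05 and 2.34 TPM against 1.74, 0.92, 1.62, 1.76 and 1.89 TPM. The remaining noncoding transcripts were close to the lower limit of 1 TPM. Gm47863, a transcript divergent from Jdp2, read 1.86, 2.09, 1.98, 2.10 and 2.55 TPM against 1.57, 1.64, 1.31, 1.82 and 1.85 TPM. Gm16023, which overlaps Slc35e2, read 1.64, 1.49, 1.60, 1.69 and 2.41 TPM against 1.32, 1.31, 1.44, 1.32 and 1.26 TPM. Gm42528 read 1.10, 1.27, 1.22, 1.25 and 1.17 TPM against 0.93, 1.00, 1.01, 0.70 and 0.96 TPM. The kit did not mark the strand, so reads from the sequence that Gm41396, Gm47863 and Gm16023 share with other genes cannot be told apart from those of these genes; of their 50-base windows, 97.4%, 94.5% and 84.1% were found in no other gene on either strand. After H2-T22, the coding members with the lowest such share had 57.2% in Tlcd3a, 74.7% in Ddt and 74.8% in Cnbd2 and in Atpif1. Next came 79.3% in 2200002D01Rik, 80.6% in Ocel1 and 88.1% in Romo1. The pseudogene Gm6651, which has the steepest difference of the 55, had 78.8%. Part of the reads of all these genes is therefore uncertain. Windows of their own throughout were found in 28 of the 55.

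The limit of the rule cut through a continuous range, ranked here by the gap between the groups relative to the intact mean. Just inside it lay Ube2d3, Ocel1 and Srsf11, whose highest KO values of 522.9, 31.05 and 216.4 TPM were under lowest intact values of 523.2, 31.09 and 216.8 TPM. Just outside lay Snx7, Hspa1b and Magohb, whose highest KO values of 40.14, 190.8 and 69.4 TPM met lowest intact values of 40.11, 190.4 and 69.2 TPM. Nearest to the minimum mean of 1 TPM were Gm42528, Rnf151 and Gm6651, with means of 1.06, 1.28 and 1.40 TPM.

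The differences of the 55 genes were unequal among KO clones. Against the mean of the intact samples, their median log2 difference was −0.26 in KO 1, −0.34 in KO 2, −0.17 in KO 3, −0.19 in KO 4 and −0.17 in KO 5, where the intact samples lay between −0.027 and 0.024. KO 2 held the lowest KO value in 24 genes, or 43.6%, although it was the lowest KO clone for 25.4% of all 13047 genes. KO 1 was lowest in 13, among them Gm6651, which is listed at 0 in KO 3 as well, KO 5 in 8, and KO 3 and KO 4 in 5 each. The median coefficient of variation among the 55 was 4.79% over intact samples and 10.1% over KO clones, and for all genes it was 8.08% and 12.3%. The rule used these same values and favors a narrow intact range, so the numbers for the 55 are a description. The intact samples also come from 3 cell lines, where the KO values come from 5 clones. Over the 1485 pairs of members, the correlation of deviations from the group means had a median r of 0.082 across the 10 samples; 19.7% of pairs exceeded 0.5 and 6.33% were under −0.5. The most alike were 1810037I17Rik and Ube2d3, with an r of 0.99, Klf2 and Cep97, with 0.98, S100a16 and Ube2d3, with 0.96, and S100a16 and Slc9a3r1, with 0.96. In each of these pairs both genes had the same lowest clone, KO 4 for Klf2 and Cep97 and KO 2 for the others. The most opposed were Fam50a and Card19, with an r of −0.92, Hoxb9 and Lage3, with −0.89, and 4921524J17Rik and Cep97, with −0.83. The points of all pairs share libraries.

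The members were unevenly spread over the chromosomes. On chromosome 3, which also carries Camk2d, lay 9 of the 55 (16.4%), namely Ift80, Dpm3, S100a14, S100a16, Bola1, Csf1, 1810037I17Rik, Ube2d3 and Srsf11, where that chromosome holds 665 of the 13047 genes (5.10%). Without KO 2 the share of chromosome 3 among the genes then lower was 10.3% (12 of 117), and without the parental line it was 10% (12 of 120); leaving out any other sample gave 14.2% to 21.8%. Before the exclusions, 11 of the 665 genes of chromosome 3 were lower in every KO clone and 2 were higher. The genes of chromosome 3 as a whole were low in a single clone: their median against the intact mean was −0.32 in KO 2, and −0.0012, −0.0051, 0.023 and −0.023 in KO 1, KO 3, KO 4 and KO 5. The shift in KO 2 ran along the chromosome, with −0.33 over the 548 genes before Camk2d in the order of the GRCm38 annotation and −0.28 over the 116 after it. KO 2 was the lowest clone for 8 of the 9 members there, and their median against the intact mean was −0.58 in KO 2 and −0.25, −0.11, −0.20 and −0.16 in KO 1, KO 3, KO 4 and KO 5. For the 46 members elsewhere the 5 medians were −0.26, −0.29, −0.17, −0.19 and −0.21, and KO 2 was lowest for 16 of them, or 34.8%.

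Other chromosomes shifted in the same 2 clones. In KO 2 the medians of chromosomes 5, 9 and 7 were 0.34, 0.43 and 0.12, and in KO 1 those of chromosomes 8 and 19 were −0.32 and 0.22. In KO 3, KO 4 and KO 5 the medians of the 19 autosomes and the X chromosome stayed between −0.045 and 0.080. Among intact samples the widest medians of these chromosomes were on chromosome 5, −0.086 and −0.11 in clone 1 and 0.098 and 0.079 in clone 2. Chromosome 8 held 4 members, Klf2, Ocel1, Sdr42e1 and 4921524J17Rik. Chromosome 9, with 712 expressed genes and the highest KO 2 median among the autosomes and the X chromosome, held none. When the median of each chromosome in each sample was taken off, an alternative chosen after the data were seen, 45 of the 55 kept the highest KO value below the lowest intact value. The 10 that did not were all 4 of chromosome 8, Bola1, S100a16, Srsf11 and Ube2d3 of chromosome 3, and Gm47863 and Card19. Dpm3, S100a14, Csf1, Ift80 and 1810037I17Rik remained lower in every KO clone after that adjustment. DNA copy number was not analysed here.

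**Figure D3:**
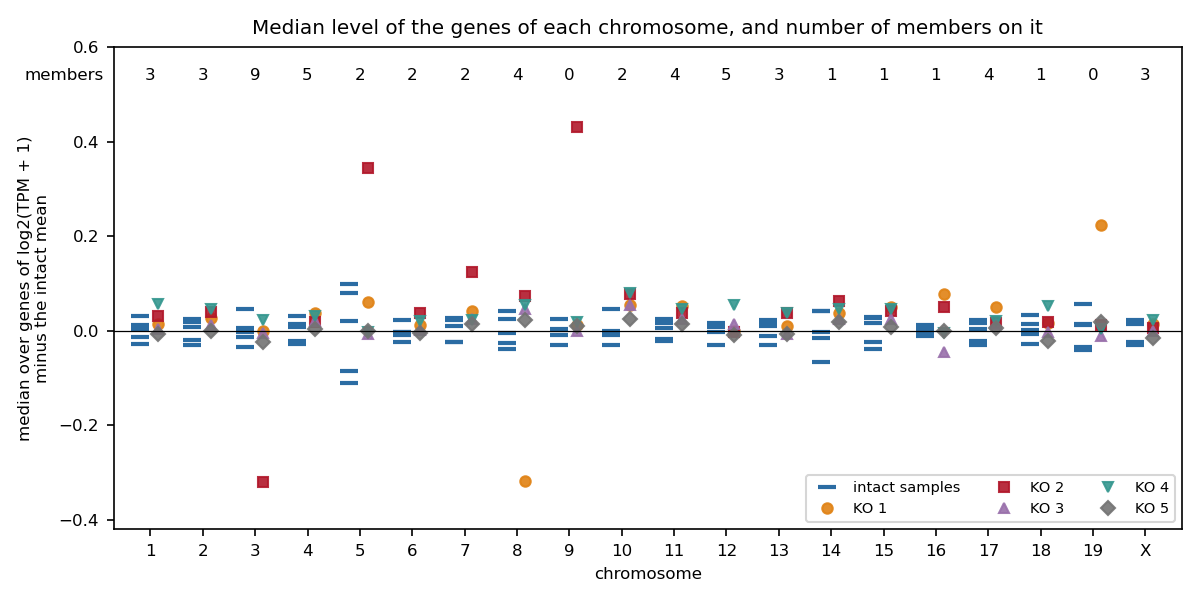
Median over the genes of each chromosome (horizontal axis) of log2(TPM + 1) minus the intact mean, for the intact samples (blue dashes) and each KO clone (symbols); the row of numbers above counts the members on each chromosome. KO 2 stands apart on chromosomes 3, 5 and 9 and KO 1 on chromosomes 8 and 19, and chromosome 3 holds 9 of the 55 members.

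A few members were neighbours elsewhere. Romo1 and Cnbd2 lie 3 coding genes apart on chromosome 2, and Fam50a and Lage3 have 1 coding gene between them on the X chromosome. Deviations from the group means had an r of 0.013 over the 10 samples for Romo1 and Cnbd2 and of 0.093 for Fam50a and Lage3. Ier3 and H2-T22 lie on chromosome 17 with 15 coding genes between them.

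Many members encode small proteins. The median coding sequence of the 48 members with a coding length was 691.5 bases, against 1371 bases over the 11088 expressed genes with one. At most 450 bases were found in 17 of the 48 (35.4%) and in 7.35% of the 11088. The 11088 include the families that were set aside by symbol from the 55. These 17 include Tmsb4x, Micos10, Romo1, Dpm3, Cstb, Cops9, Atpif1, S100a14, S100a16, Ddt and Bola1. In 16 of the 17, KO 1 or KO 2 was the lowest clone, as in 37 of the 55 (67.3%) and in 51.7% of all 13047 genes. Of the 17, 6 lie on chromosome 3, which was low as a whole in KO 2. Genes with short coding sequences that are not among the 55, 798 in number, had medians against the intact mean of −0.10, −0.062, −0.031, −0.056 and −0.014 in KO 1 to KO 5. In intact samples the same medians lay between −0.040, in the parental line, and 0.019, so that KO 3 and KO 5 fell within the intact range and KO 1, KO 2 and KO 4 below it. The other genes with longer coding sequences had medians of 0.038, 0.076, 0.016, 0.044 and 0.0082 in KO 1 to KO 5 and 0.027 in the parental line, where the short genes thus also lay below the longer ones. The members' own median in each KO clone was further below 0 than that of the short genes, as the rule all but ensures. The part of coding length in the members' median was not tested.

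**Figure D4:**
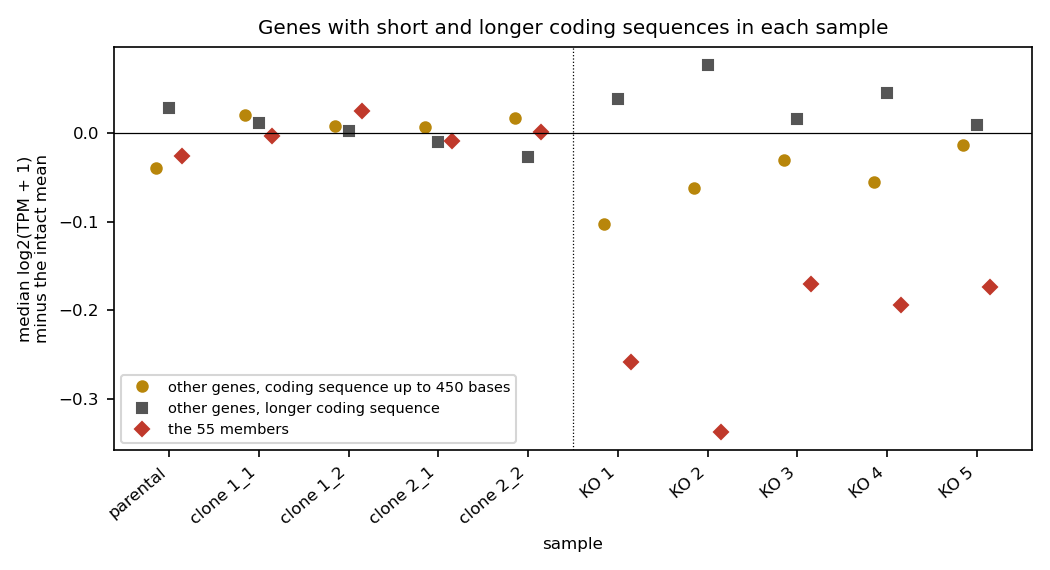
Median log2(TPM + 1) minus the intact mean in each sample (horizontal axis) for the 55 members (red diamonds) and for other genes with a coding sequence of up to 450 bases (gold circles) or longer (grey squares); the dotted line separates intact samples from KO clones. The short genes lie below the longer ones in each KO clone and also in the parental line (−0.040 against 0.027). The distance in the parental line exceeds that in KO 3 or KO 5. The members, selected for low KO values, lie between −0.34 and −0.17 in the KO clones.

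Promoters of 41 of the 55 were matched in RefSeq (GRCm38.p6) by Ensembl gene identifier, or by symbol where that gave none. Each spans 300 bases, of which 250 precede the start and 50 follow it. They were searched on both strands for motifs. The kinase acts on class IIa histone deacetylases, which repress MEF2 factors, and cAMP acts on CREB, so sites of these factors were among those sought. A MEF2 site was in 1 of the 41 (2.44%), that of Klf2, against 1.96% of 9356 expressed genes. The full cAMP response element TGACGTCA was in those of Chmp2a and Fam50a (4.88% against 3.72%), and its core TGACG, which the full element also contains, in 11 (26.8% against 36.6%). The AP-1 site TGANTCA was in those of S100a16 and 2200002D01Rik (4.88% against 5.86%). The GC box GGGCGG was in 28 (68.3% against 70.7%), the ETS core CGGAAG in 17 (41.5% against 37.1%), CCAAT in 18 (43.9% against 43.3%), the E-box CACGTG in 6 (14.6% against 11.97%), TATAAA in 4 (9.76% against 8.14%) and the metal response core TGCNCNC in 28 (68.3% against 64.4%). The YY1 site AAGATGGCG and the grainyhead site AACCGGTT were in none, against 3.85% and 0.28% of expressed genes. The median GC content was 63.3% in the members and 61.0% in expressed genes.

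The 250 bases before the start are printed for 3 promoters that hold a less common site there and for the 2 most abundant members, Wfdc2 and Tmsb4x, 5′ to 3′ on the strand of the gene in GRCm38.p6, with the site in capitals. Klf2 (chr8:72318812-72319061, plus strand) has its MEF2 site from 118 to 109 bases before the start. In Fam50a (chrX:74312783-74313032, plus strand) the cAMP response element ends 4 bases before it. S100a16 (chr3:90540896-90541145, plus strand) is shown with its AP-1 site, and Wfdc2 (chr2:164562465-164562714, plus strand) and Tmsb4x (chrX:167209219-167209468, minus strand) with a GC box on either strand. A match is a description of the letters and not a measured site.
Klf2: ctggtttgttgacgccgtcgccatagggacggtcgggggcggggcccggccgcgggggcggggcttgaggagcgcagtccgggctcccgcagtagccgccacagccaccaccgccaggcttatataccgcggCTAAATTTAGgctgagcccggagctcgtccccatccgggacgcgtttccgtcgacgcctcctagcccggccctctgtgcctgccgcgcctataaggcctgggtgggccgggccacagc
Fam50a: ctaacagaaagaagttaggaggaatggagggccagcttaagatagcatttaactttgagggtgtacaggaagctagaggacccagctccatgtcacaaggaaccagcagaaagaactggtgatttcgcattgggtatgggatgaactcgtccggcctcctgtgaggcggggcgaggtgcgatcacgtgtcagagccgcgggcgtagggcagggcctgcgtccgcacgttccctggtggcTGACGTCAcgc
S100a16: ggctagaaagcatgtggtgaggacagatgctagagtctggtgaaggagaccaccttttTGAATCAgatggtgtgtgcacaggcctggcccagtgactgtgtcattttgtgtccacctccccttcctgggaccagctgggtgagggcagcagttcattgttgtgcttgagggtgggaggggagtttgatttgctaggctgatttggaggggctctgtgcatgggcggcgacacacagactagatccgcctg
Wfdc2: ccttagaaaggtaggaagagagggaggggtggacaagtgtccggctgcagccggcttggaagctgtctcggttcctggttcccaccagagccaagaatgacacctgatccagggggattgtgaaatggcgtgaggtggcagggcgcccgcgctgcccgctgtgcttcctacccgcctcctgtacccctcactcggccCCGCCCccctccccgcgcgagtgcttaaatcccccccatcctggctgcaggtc
Tmsb4x: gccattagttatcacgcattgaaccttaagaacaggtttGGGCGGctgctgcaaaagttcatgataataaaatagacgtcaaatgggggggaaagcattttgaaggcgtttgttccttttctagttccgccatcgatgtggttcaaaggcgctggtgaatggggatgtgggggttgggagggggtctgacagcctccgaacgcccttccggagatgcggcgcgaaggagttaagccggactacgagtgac

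The clonal lines that keep CAMK2D were also compared with each other, as Intact clone 2 against Intact clone 1 (2 samples each). The rule used these intact values too and favors genes with a narrow intact range, so the counts and sizes for the 55 in this contrast are in part set by it and are given as a description. In limma on log2(TPM + 1), 20 of 13047 genes were called at an adjusted p under 0.05 (0.153%), 13 higher and 7 lower in clone 2, and none of the 55. The number rests on the samples fitted: with the intact clones alone 247 genes were called, 151 higher and 96 lower, without KO 2 there were 98, and more genes were lower than higher without clone 1_1 (11 of 12), clone 1_2 (11 of 14) or KO 5 (7 of 12) and without a variance trend (6 of 9). At an unadjusted p under 0.05, the same fit held 2 of the 55 (3.64%), where it held 963 of all genes (7.38%), and the lowest adjusted p of a member was 0.29. With the intact clones alone these were 8 of the 55, 2782 of all genes and 0.078, and without KO 2 they were 5, 1688 and 0.085. The 2 were Sdr42e1, with 14.8 TPM in clone 1 and 10.3 TPM in clone 2 (log2 difference −0.49 ± 0.12 SE, adjusted p = 0.34 in limma), and Lage3, with 81.9 and 69.5 TPM (−0.23 ± 0.058 SE, adjusted p = 0.29 in limma). The median absolute difference between the intact clones was 0.049 for the 55 and 0.11 for all genes. In 3 genes, Sdr42e1, Lage3 and Gm16023, the intact clones differed by more than KO and intact did. In the corresponding limma fit of KO against intact, Camk2d was the only gene called (1 of 13047, 0.00766%), no member was called and their lowest adjusted p was 0.18. An unadjusted p under 0.05 in that fit was held by 51 of the 55, as the rule all but ensures, and by 1095 of all genes (8.39%). In that fit both samples of an intact clone enter as independent values, and with 1 value per cell line the numbers were 38 of the 55 and 495 of all genes.

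**Figure D5:**
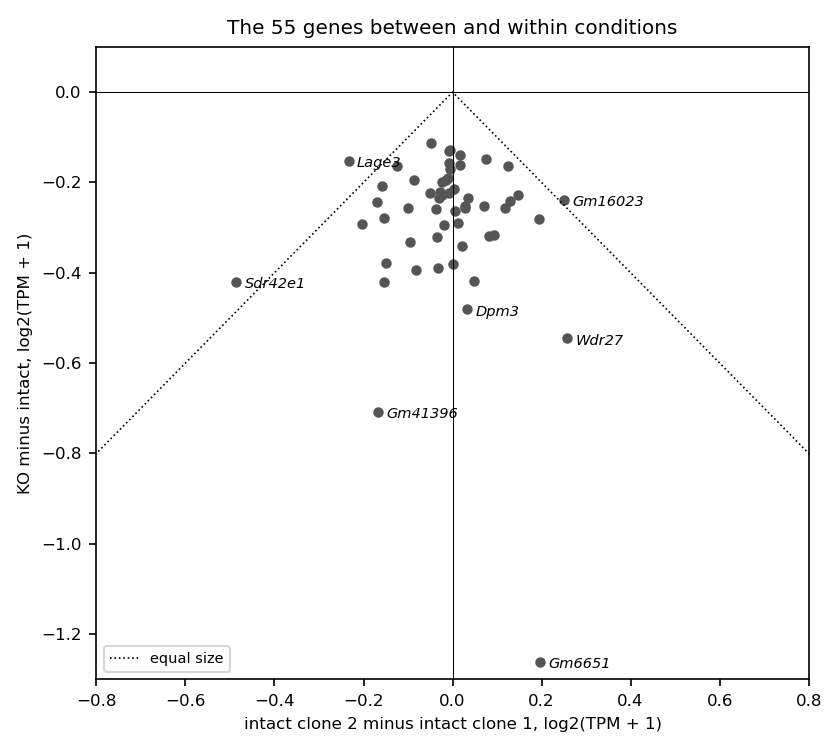
Difference in log2(TPM + 1) between Intact clone 2 and Intact clone 1 (horizontal axis) and between the KO and intact means (vertical axis) for the 55 genes (points); the dotted lines mark equal size. Sdr42e1, Lage3 and Gm16023 lie outside the lines, where the intact clones differ more than KO and intact do, and the other points lie below them.

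Over all expressed genes 0.560% were lower in every KO clone, a share at which lists of this size hold few or no such genes, so nothing is read from a count of 0 or 1 in a list. None of 26 expressed genes of vasopressin and cAMP signalling, of 16 genes of water and sodium transport in the collecting duct, of 31 calmodulin and CaM kinase genes and of 25 genes of calcium handling was lower in every KO clone, and none was higher; their medians were 0.022, −0.12, 0.053 and 0.097. The same was true of 41 glutathione, thioredoxin and NRF2 target genes, 45 lysosomal and vacuolar ATPase genes, 24 NF-kB genes, 21 p53 targets and 41 cell cycle genes, with medians between −0.045 and 0.039.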

How the data were processed

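Total RNA of 10 samples was converted to cDNA with SMART-Seq v4 (9 PCR cycles), tagged with Nextera XT and sequenced as paired 50-base reads; the kit does not mark the strand. Per the study's methods, reads were aligned with STAR 2.7.10b to Ensembl 106 and quantified with RSEM 1.3.1. The authors deposited TPM (a length-corrected transcript share) values of 55414 genes, in which replicates were not pooled. The table holds no counts, so sequencing depth is unknown and no counting interval was computed, and no count model was fitted. Because TPM is a share of a fixed total, 1 abundant gene can lower others.

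The members and gene lists were chosen with earlier results of these data known. Genes with a mean of at least 1 TPM entered; members were taken by the rule stated in the report. Every member is named. Full values were required for the 12 with the lowest log2 difference, the 8 most abundant, the 6 with the widest relative gap and those on a gene list, and were given for all. Differences were computed as log2(TPM + 1). limma 3.58.1 (R 4.3.3, trended variance, Benjamini-Hochberg) was fitted over all 13047 genes, with parental, Intact clone 1, Intact clone 2 and KO as groups for the contrast of intact clones. It was first tested on simulated data. P-values measure the spread between these samples, which may be technical. Lengths, chromosomes, gene order and shared 50-base windows came from GENCODE M21 (GRCm38), not the authors' build, and promoters from RefSeq GRCm38.p6. Alternatives were other offsets, minimum levels, rescalings, 1 value per cell line, leaving out each sample and, added later, centring chromosomes. Python 3.11.15 was used for tables and figures.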

Additional observations from a re-analysis of the deposited data

Results flagged for a closer look

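Among the 110 groups of 5 values (55 members in intact samples and in KO clones), 12 had a sample whose gap to its nearest neighbour exceeded 0.71 of the range of the group, Dixon's limit for 5 values, which chance gives in about 1 of 20 groups. The values are those the rule used: it leaves out genes with a high KO sample or a low intact sample that would close the gap between the groups, so the side on which these samples lie is largely set by it, and the number is a description. In KO clones there were 11 such groups, all with a low sample, and in 7 of these it was KO 2: 1810037I17Rik at 137 TPM, S100a16 at 325 TPM, Ube2d3 at 355 TPM and Csf1 at 19.1 TPM on chromosome 3, and Gm11613 at 0.92 TPM, 2200002D01Rik at 63.8 TPM and Ier3 at 29.6 TPM elsewhere. The median of all chromosome 3 genes in KO 2 was −0.32. KO 1 stood low for Tlcd3a at 33.7 TPM and Cstb at 659 TPM, KO 4 for Gm42528 at 0.70 TPM and KO 5 for Map1b at 12.9 TPM. The intact group with such a sample was that of Gm16023, where clone 2_2 was high at 2.41 TPM.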

How the results depend on the processing

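The number of genes lower in every KO clone moved with the samples and scaling used. It was 55 as deposited, 85 after rescaling by median ratios (53 of the 55 among them), 82 after quantile normalization (48 among them), 130 with 1 value per cell line and 90 with chromosomes centred (45 among them). Leaving out 1 sample gave 69 to 134, the lowest without clone 1_2 and the highest without KO 1; it was over 1.5 times the main count without the parental line (120), clone 2_2 (88), KO 1 (134), KO 2 (117), KO 3 (105), KO 4 (105) and KO 5 (101), since fewer samples have to be separated. A minimum mean of 0.5 or 5 TPM gave 59 and 46. The median log2 difference of the 55 stayed between −0.28 and −0.22 over these settings. For single members, none changed sign over 17 settings, and 926 of the values moved by less than 1 SD and 9 by more; Gm6651 read −2.76 with an offset of 0.1 and −1.72 with 0.5, Gm41396 −1.12, Rnf151 −0.71 and Gm42528 −0.36 with 0.1, Pspc1 −0.18 after quantile normalization, and, with chromosomes centred, Pspc1 −0.18, Gm42528 −0.28 and Srsf11 −0.064 (−0.13 as deposited). Leaving out 1 sample moved 9 members by over 1.5 times: without KO 2, Ube2d3 went from −0.17 to −0.067, S100a16 from −0.20 to −0.10, 1810037I17Rik from −0.38 to −0.22, Slc9a3r1 from −0.20 to −0.12, 2200002D01Rik from −0.32 to −0.20, Ift80 from −0.25 to −0.16, Grhl1 from −0.24 to −0.16 and Ddt from −0.23 to −0.15, and without KO 1 Cstb went from −0.15 to −0.090. In the contrast of intact clones no member was called by limma under any setting run, although leaving out a sample of an intact clone leaves 1 sample in that arm, assumed to vary like the other groups, so a count of 0 there says little, while the genes called went from 20 to 247 in a fit of the intact clones only and to 9 without a variance trend, and to between 12 and 98 on leaving out 1 sample (98 without KO 2, 40 without KO 1, 13 without KO 3 and 12 without clone 1_1, clone 2_2 or KO 5). KO against intact called 1 to 2 genes on leaving out 1 sample, with 2 without the parental line, clone 2_2, KO 1 or KO 3. Apart from the smaller number of samples, the cause was not tested. No paired analysis was possible because the replicate numbers of intact and KO samples come from no shared label. Depth is unknown, so differences of genes near 1 TPM have no counting error attached.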
